A study of Mus musculus with 3 samples.

Results

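PATZ1 peaks on chromosomes 3, 4 and 13 of the mouse genome (mm9) are described here. These are the autosomes on which the day 0 list was densest after chromosome 15, so they were chosen by day 0 density, which is a description here with no test. All rows on these chromosomes were taken: 95409 of the 315100 day 0 peaks (30.3%) and 149928 of the 852421 day 5 peaks (17.6%). At day 0, 36237 of them lay on chromosome 3, 30448 on chromosome 4 and 28724 on chromosome 13. At day 5 the counts were 58869, 48825 and 42234.

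The lists come from chromatin immunoprecipitation and sequencing (ChIP-seq) of PATZ1 in 10T1/2 cells. This established mouse line is of mesenchymal type and is used as a model of fat cell formation. The labels give 1 PATZ1 library from cells at day 0 and 1 from cells at day 5 of differentiation. They also give 1 input of the same line, with no day. No genotype or agent is given for these groups. The protocol names a Santa Cruz antibody for a day 0 and day 5 set and an Abclonal antibody for a set with further days. With 1 library per day nothing has a replicate check and no p-value is given. Intervals cover counting error only, in each case at 95%, and treat peaks as independent.

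PATZ1 is a transcription factor with a BTB/POZ domain, through which such factors pair and recruit cofactors, AT-hooks and C2H2 zinc fingers that contact G-rich DNA. It can raise or lower the activity of its targets. The study asks which loci it occupies before and during adipogenesis. A peak list records where reads pile up above a background taken from control DNA. Its density along a chromosome therefore depends on bound sites, on how many reads the chromosome gives, and on how low a limit was set. Genes at these positions, and sequence under the peaks, were not analysed here, because the gene and sequence tables at hand are of another build.

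Both lists are loose. The narrowest peaks were 228 bp at day 0 and 56 bp at day 5, and the lowest background over that width was 8.55 and 8.07 reads per kb. The weakest −log10 p was 1.01 at day 0 and 1.30 at day 5. Levels are therefore compared between chromosomes within a list, and the ratio of the lists is read only as a pattern along chromosomes. The 15 comparison chromosomes are 1 to 19 without 3, 4, 13 and 15.

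Day 0 density reached along each whole chromosome. Between the first and the last listed peak, chromosome 13 held 245.4 day 0 peaks per Mb (242.6 to 248.3), chromosome 3 held 231.4 (229.03 to 233.8) and chromosome 4 held 199.5 (197.3 to 201.8). The next below was chromosome 6 with 164.6, followed by 19 with 159.9 and 8 with 155.7. Chromosome 15, just above, held 266.3. The 15 comparison chromosomes together held 101.04 per Mb, from 50.5 on chromosome 10 to 164.6 on chromosome 6. The step from chromosome 4 to chromosome 6 was of the same order as that from chromosome 3 to chromosome 4, so these chromosomes are the top of a graded series.

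Whole 5-Mb windows between the first and last peak numbered 30 on chromosome 3, 30 on chromosome 4, 23 on chromosome 13 and 364 on the comparison chromosomes. They held 93295 of the 95409 day 0 peaks and 146463 of the 149928 day 5 peaks, and the rest lay at chromosome ends. On chromosome 3 the windows ran from 135.2 to 339.8 day 0 peaks per Mb with a median of 240.1. On chromosome 4 they ran from 75 to 299.8 with a median of 203.3, and on chromosome 13 from 92.2 to 323.4 with a median of 251.8. Comparison windows had a median of 92.9 and reached 256.4. In all, 81 of the 83 windows stood above the comparison median, so the density was no property of a few segments. This was not particular to these chromosomes. Of the comparison windows 182 of 364 stood above it, among them all 28 of chromosome 6, all 11 of chromosome 19 and 24 of 25 of chromosome 8. All 19 windows of chromosome 15 did as well.

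Taking the 90th percentile of comparison windows, 169.4 peaks per Mb, as a stricter limit, 26 of 30 windows of chromosome 3, 21 of 30 of chromosome 4 and 22 of 23 of chromosome 13 were above it. Over these and the comparison windows together the share was 23.7%, and since this density chose the chromosomes the counts are given as a description only. The longest unbroken run above the limit was 13 windows on chromosome 3, 12 on chromosome 13 and 6 on chromosome 4. The 20 densest windows of the 18 chromosomes all lay on these 3, with 9 on chromosome 3, 5 on chromosome 4 and 6 on chromosome 13. Chromosome 4 was thus the most broken of them, and chromosome 13 the most even. Their coefficients of variation over windows were 29.5% and 20.8%, with 23.1% on chromosome 3. Of the comparison chromosomes, 6 and 8 were about as even, at 22.8% and 21.9%, and chromosome 19 more so, at 10.3%.

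**Figure D1:**
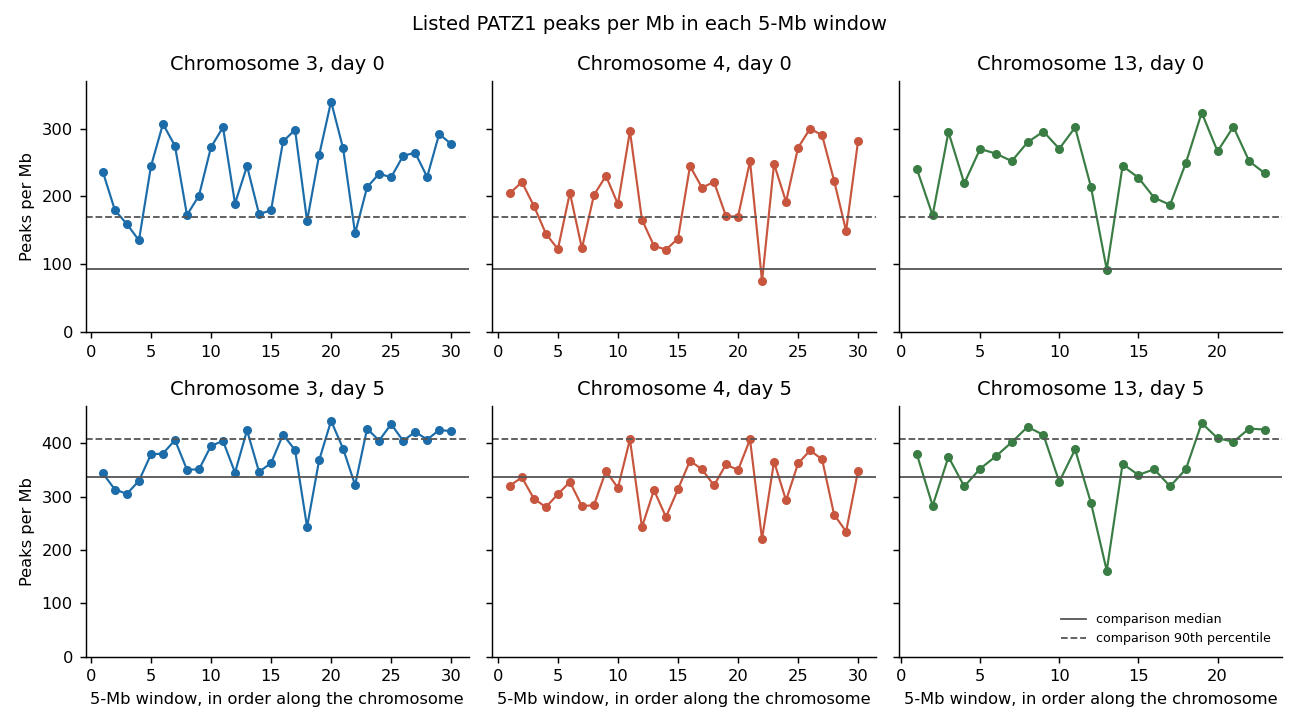
Listed PATZ1 peaks per Mb (y axis) in each whole 5-Mb window (x axis, order along the chromosome) at day 0 (top) and day 5 (bottom). Solid and dashed lines mark the median and the 90th percentile of comparison windows: at day 0 all but 2 of the 83 windows lie above the solid line of 92.9, and at day 5 54 lie above the solid line of 336.4.

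The first, middle and last parts of a chromosome differed little. On chromosome 13 these parts, of 8, 7 and 8 windows, held 248.95, 235.2 and 251.6 day 0 peaks per Mb. On chromosome 3 they held 218.2, 243.3 and 241.4. Chromosome 4 rose toward its far end, from 182.9 and 186.8 to 228.3, although day 5 density did not, with 309.3, 328.5 and 325.1.

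The densest window of chromosome 3, chr3:100000001-105000000, held 339.8 day 0 peaks per Mb (323.8 to 356.4) and 441.6 at day 5. Those from 30000001 and from 55000001 followed with 306.8 and 301.8. On chromosome 4 the densest windows began at 130000001, with 299.8 per Mb (284.8 to 315.4), at 55000001 with 296.2 and at 135000001 with 290.2. On chromosome 13 they began at 95000001, with 323.4 (307.8 to 339.6), at 105000001 with 302.6 and at 55000001 with 301.6. Each of these 9 windows exceeded every comparison window at day 0. At day 5 the same windows held 369.6 to 441.6 per Mb, more than 70.9% to 97.3% of comparison windows, so none passed them all there.

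The sparse windows were few. The lowest of chromosome 13, chr13:65000001-70000000, held 92.2 day 0 peaks per Mb (83.97 to 101.01), against 172.2 in the next lowest, from 10000001. It was the sparsest of the 83 windows at day 5 too, with 161.2 per Mb, and only 4.12% of comparison windows were lower there. Its edge was the sharpest on that chromosome: the following window held 244.8 at day 0, 2.66 times as many, and 361.2 at day 5, 2.24 times. The lowest window of chromosome 4, chr4:110000001-115000000, held 75 at day 0 (67.6 to 82.99) and 220.2 at day 5. The window before it held 252.0 and 406.8, so the fall was 3.36 times at day 0 and 1.85 times at day 5. The other low windows of chromosome 4 began at 70000001 with 121.6 and at 25000001 with 122.2. On chromosome 3 the lowest began at 20000001 with 135.2, at 110000001 with 145.6 and at 15000001 with 159.2, and the sharpest step, into the window from 110000001, was 1.86 times. The day 5 step there was 1.21 times.

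All 14 windows not above the day 0 limit of 169.4 had a day 5 density below the comparison median of 336.4 per Mb, from 161.2 to 329.4. Of the 69 windows above the limit, 15 did. Of the 364 comparison windows, 182 lay above that day 5 median. In windows of 1 Mb, 19 of 422 fell below the day 0 comparison median of 91 peaks, and all 19 were also below the day 5 comparison median of 339. They were 2 on chromosome 3, 11 on chromosome 4 and 6 on chromosome 13, and no run of them was longer than 2 Mb. On comparison chromosomes 927 of 1861 such windows fell below the day 0 median, and 616 were low on both days. Low on both days were, for example, all 105 low windows of chromosome 7 and 10 of 116 of chromosome 10. The emptiest runs of the 3 chromosomes, chr4:112000001-114000000 and chr4:145000001-147000000, averaged 13 day 0 peaks per Mb each. At day 5 they averaged 108.5 and 37.5. Runs on chromosome 13 from 65000001 to 67000000 and from 61000001 to 63000000 averaged 36 and 65 at day 0 and 60.5 and 98.5 at day 5. The labels give 1 input, with no day, so the lists may share their control, and its part in these low stretches was not tested.

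The day 5 list did not single out these chromosomes. Chromosome 3 held 375.9 day 5 peaks per Mb (372.9 to 378.98), chromosome 13 held 360.9 (357.4 to 364.3) and chromosome 4 held 319.9 (317.1 to 322.8). They ranked 4th, 7th and 14th of 19 autosomes, and the comparison chromosomes together held 322.7, from 155.4 on chromosome 7 to 427.4 on chromosome 10. The median window of the 83 had 352.0 per Mb, 1.05 times the comparison median, beside 2.48 times at day 0. Above the 90th percentile of comparison windows at day 5, 408.1 per Mb, lay 8 windows of chromosome 3, 0 of chromosome 4 and 6 of chromosome 13, where 11.4% of all these windows did. None of the 10 densest day 5 windows was among the 83.

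**Figure D2:**
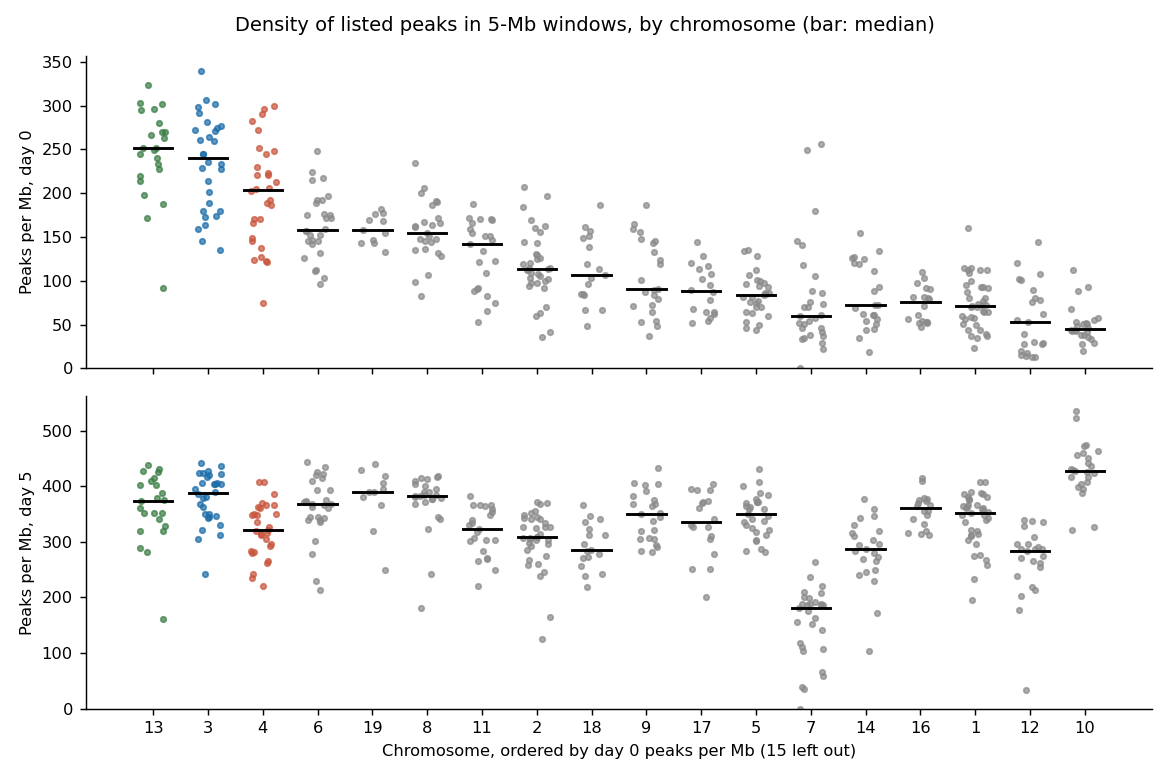
Peaks per Mb in each 5-Mb window (points) and their median (bars) for the 18 chromosomes, ordered by day 0 density, at day 0 (top) and day 5 (bottom). Chromosomes 13, 3 and 4 lead at day 0 with medians of 251.8, 240.1 and 203.3, and lie among the others at day 5 with 374.2, 388.2 and 320.5.

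The number of day 0 peaks per day 5 peak in a window was accordingly high along the whole of each chromosome. Its median was 0.635 on chromosome 3, 0.638 on chromosome 4 and 0.678 on chromosome 13, against 0.307 in comparison windows. All 83 windows exceeded that comparison median, the 2 sparse windows above included, with 0.341 on chromosome 4 from 110000001 and 0.572 on chromosome 13 from 65000001. Of the comparison windows 181 of 363 exceeded it, among them 27 of 28 of chromosome 6, 24 of 25 of chromosome 8 and all 11 of chromosome 19. All 19 windows of chromosome 15 did as well. The 90th percentile of comparison windows, 0.487, was passed by 28 windows of chromosome 3, 22 of chromosome 4 and all 23 of chromosome 13, where 24.7% of all these windows passed it. On chromosome 13 the ratio varied least, from 0.550 to 0.825, with a coefficient of variation of 11.6%. The ratio was not bound to these chromosomes: chromosome 7, whose day 5 density is the lowest, had windows up to 1.36.

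The shares of peaks at the lowest background on these chromosomes lay within the range of the comparison chromosomes. The control itself is not in the lists. The median background of day 0 peaks was 2.72 reads on the 3 chromosomes together and 2.48 on the comparison chromosomes together. Single comparison chromosomes ran from 1.95 to 3.06. Of the day 5 peaks, those at that list's lowest background of 0.452 reads made up 17.1% on chromosome 3, 24.9% on chromosome 4 and 13.3% on chromosome 13, and on comparison chromosomes they ran from 4.18% to 58.96%. In the day 0 list, whose lowest background was 1.95 reads, the shares were 17.01%, 24.4% and 14.01%. There were 8 comparison chromosomes with a day 5 share within the range of the 3, namely 1, 5, 6, 8, 9, 11, 16 and 17, a selection made after seeing the values. They held 74.6 to 164.6 day 0 peaks per Mb and 109.7 together, and chromosomes 3, 4 and 13 together held 2.04 times as many, 223.8. For peaks at the lowest background alone, the median window of the 3 chromosomes was 1.56 times the comparison median, below the 2.48 times over all peaks. The part of the background in the excess was not tested.

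At day 0, peaks of every −log10 p class below 12 were denser, and the excess was smallest at 12 and above. Chromosomes 3, 4 and 13 together held 2.13 times as many day 0 peaks per Mb as the comparison chromosomes at a −log10 p from 1 to 1.5, and 1.92 and 2.003 times in the next classes up to 2.5. The excess rose to 3.23 times (3.11 to 3.36) from 4 to 5 and 3.32 times (3.09 to 3.57) from 5 to 6. It then fell to 2.13 times (1.76 to 2.57) from 8 to 12 and to 1.18 times (0.936 to 1.48) at 12 and above, where 94 peaks lay on the 3 chromosomes. Each chromosome had this course: at 5 to 6 the excess was 3.39 times on chromosome 3, 2.90 on chromosome 4 and 3.80 on chromosome 13. At 12 and above it was 1.09 (0.759 to 1.56), 1.22 (0.864 to 1.73) and 1.23 (0.831 to 1.82), intervals that include 1. Chromosome 15 had 5.93 times the comparison density at 5 to 6 and 3.50 times (2.69 to 4.56) at 12 and above. In the day 5 list the 3 together had 1.04 to 1.27 times the comparison density in every class below 8. Chromosome 13 reached 1.41 times (1.34 to 1.47) from 1 to 1.5, and chromosome 4 was at 0.927 times (0.905 to 0.950) from 2 to 2.5.

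**Figure D3:**
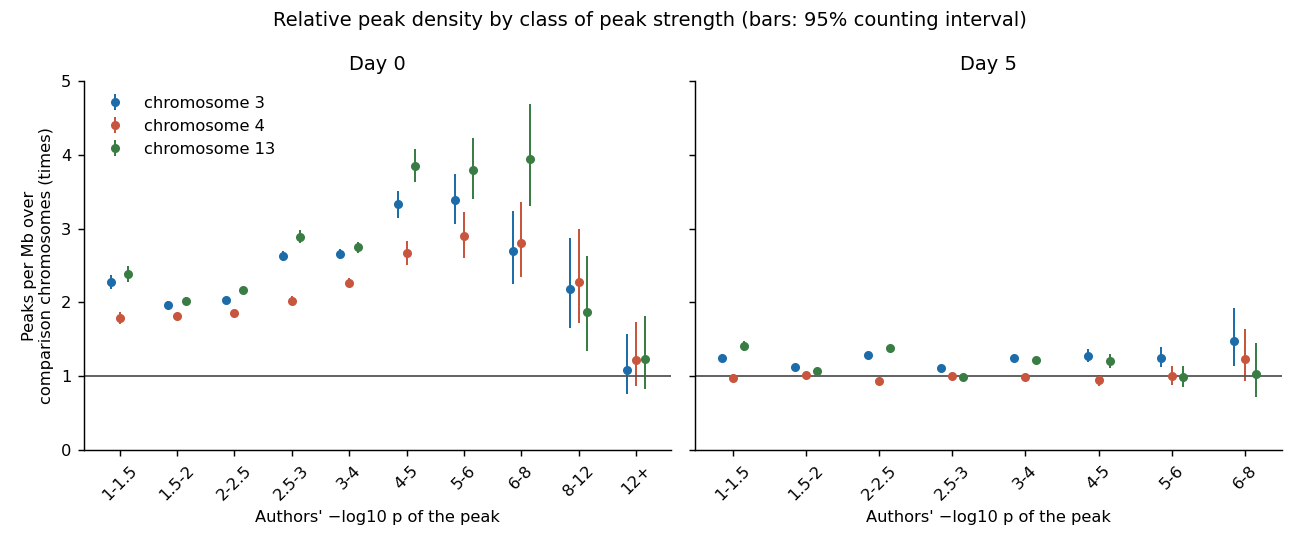
Peaks per Mb on each chromosome divided by that of the comparison chromosomes (y axis, 1 marked by a line), by class of the authors' −log10 p (x axis), with 95% counting intervals. At day 0 the excess peaks near 4 to 8 and ends at 1.09 to 1.23 times in the strongest class, while at day 5, below 8, chromosome 3 lies between 1.12 and 1.48, chromosome 13 between 0.985 and 1.41 and chromosome 4 between 0.927 and 1.24.

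A q of at most 0.05 was met by 830 day 0 peaks of chromosome 3, 710 of chromosome 4 and 709 of chromosome 13, or 2.29%, 2.33% and 2.47% of their peaks, beside 2.09% of the whole list. Per Mb these were 5.30, 4.65 and 6.06, above every comparison chromosome, of which chromosome 19 was highest with 3.90. Each of the 83 windows held at least 1 such peak, as did 343 of the 364 comparison windows (95.3% of all these windows), and the median number was 26 against 6. At a −log10 q of at least 5, 57, 66 and 49 peaks remained, 0.157%, 0.217% and 0.171% of their peaks where the whole list had 0.258%. Per Mb these were 0.364, 0.432 and 0.419, and chromosome 11 exceeded all 3 with 0.597. They ranked 7th, 5th and 6th of 19. At a −log10 q of at least 10, 24, 28 and 21 peaks were left. These were 0.0662%, 0.0920% and 0.0731% of their peaks, where the whole list had 0.118%. The 3 chromosomes together had 1.44 times (1.22 to 1.71) the comparison density at a limit of 5 and 1.33 times (1.02 to 1.72) at 10. A peak past the limit of 5 stood in 18 of 30 windows of chromosome 3, 19 of 30 of chromosome 4 and 18 of 23 of chromosome 13, and in 58.2% of all these windows. At −log10 q of at least 20 chromosome 13 held 13 peaks, and chromosomes 3 and 4 held 8 and 7 (0.0453%, 0.0221% and 0.0230% of their peaks, against 0.0457% overall). Chromosome 13 then had 0.111 per Mb, 2.27 times the comparison (1.27 to 4.06) and rank 2 of 19, while chromosomes 3 and 4 had 1.04 (0.507 to 2.15) and 0.938 times (0.435 to 2.02). At day 5 a q of at most 0.05 was met by 0 peaks of chromosome 3 and 1 each of chromosomes 4 and 13, beside 0.00129% of that list.

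Peaks at the lowest background were compared by the reads piled up at their summit, since the background solved for them has 1 value per list. Many peaks share this lowest value, so the control at these sites may still differ between chromosomes, which was not tested. At day 0 the 3 chromosomes together had 1.37 times the comparison density of peaks with 5 reads, 1.52 times with 6, 1.86 times with 7, 2.37 times with 8, 2.79 times with 9 and 3.30 times with 10 (270 peaks). The excess grew from 5 to 10 reads and was 3.12 times at 11 (77 peaks) and 4.41 times at 12 (25 peaks). On chromosomes 3 and 4 it was lower at 11 reads than at 10, with 3.09 and 2.71 times. At 10 reads it was 3.56 times on chromosome 3, 3.04 on chromosome 4 and 3.30 on chromosome 13. Peaks with 8 reads were 0.469 times as many as those with 7 on chromosome 3 (0.430 to 0.511), 0.455 on chromosome 4 (0.419 to 0.495) and 0.479 on chromosome 13 (0.430 to 0.534). On comparison chromosomes this ratio ran from 0.292 (0.239 to 0.356) on chromosome 16 to 0.429 (0.376 to 0.490) on chromosome 8. The interval of chromosome 8 overlaps those of the 3, as do some others, such as that of chromosome 19 with 0.426 (0.334 to 0.544). Chromosome 15 had 0.609 (0.485 to 0.764). At day 5 the excess was 0.830 times with 2 reads, 0.883 with 3, 1.007 with 4 and 1.08 with 5. The ratio of peaks with 4 reads to those with 3 was 0.256, 0.234 and 0.268, within the 0.163 to 0.332 of comparison chromosomes. The lists do not hold the reads per chromosome, so more day 0 reads from these chromosomes and more sites with PATZ1 on them cannot be told apart.

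**Figure D4:**
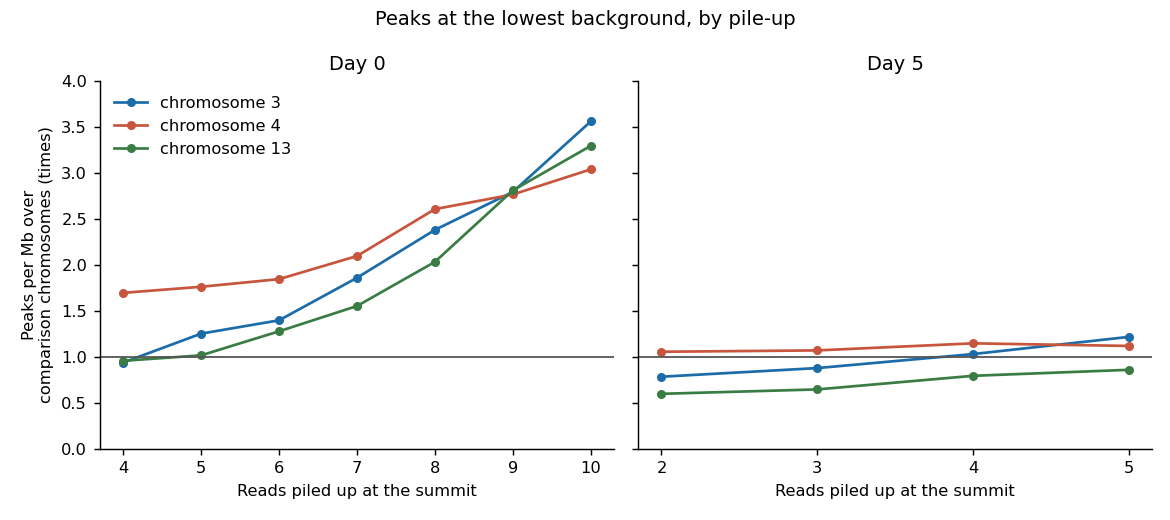
Peaks per Mb relative to comparison chromosomes (y axis, 1 marked by a line) among peaks at the lowest background of each list, by the number of reads piled up at the summit (x axis), for chromosomes 3, 4 and 13. The day 0 lines climb to between 3.04 and 3.56 at 10 reads, and the day 5 lines stay between 0.598 and 1.22.

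Day 0 peaks were wider on these chromosomes, by an amount that depended on which peaks were taken. The median width was 287 bp on chromosome 3 (quartiles 236 and 382), 283 bp on chromosome 4 (233 and 375) and 290 bp on chromosome 13 (238 and 390), against 270 bp (228 and 345) on comparison chromosomes, which ranged from 261 to 281. Peaks at least 456 bp wide, which is 2 times the narrowest, made up 14.6%, 13.6% and 15.5%, beside 11.9% of all autosomal peaks and 6.85% to 12.6% on the comparison chromosomes. At the narrowest width were 20.6%, 22.3% and 19.5%, against 27.3% on comparison chromosomes. Peaks covered 7.77%, 6.60% and 8.37% of the 3 chromosomes and 3.14% of the comparison chromosomes, so coverage differed by more than number alone. Among peaks with a q of at most 0.05 the median widths were 436.5, 473.5 and 465 bp against 446 bp, a difference of 7 bp for the 3 together and in the other direction on chromosome 3. At a −log10 q of at least 5 the difference was 122 bp, with 718 bp in 172 peaks against 596 bp in 526. Over all day 0 peaks, those of chromosome 15 were wider still, with a median of 301 bp. Of them 18.3% were at least 456 bp wide, and they covered 9.49% of that chromosome.

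Widths were alike where densities met. In windows with 150 to 200 day 0 peaks per Mb, the median width was 278 bp in 16 windows of the 3 chromosomes and 278 bp in 59 comparison windows. With 200 to 250 it was 286 bp in 25 windows and 288 bp in 9, and with 100 to 150 it was 268 bp in 9 and 271 bp in 98. With 50 to 100 it was 271 bp in 2 windows and 261 bp in 142. The shares of peaks at least 456 bp wide were 11.9% on the 3 chromosomes and 11.9% in comparison windows at 150 to 200. In the same order they were 14.4% and 15.6% at 200 to 250, and 9.03% and 9.63% at 100 to 150. At 50 to 100 they were 9.69% and 7.11%. Among peaks of one pile-up, not matched on density, those of the 3 chromosomes were wider, with medians of 277 against 269 bp at 7 reads and 335 against 312 bp at 10 reads. Day 0 summits of neighbouring peaks lay a median of 2418, 2675 and 2261 bp apart on chromosomes 3, 4 and 13 and 4610 bp apart on comparison chromosomes.

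**Figure D5:**
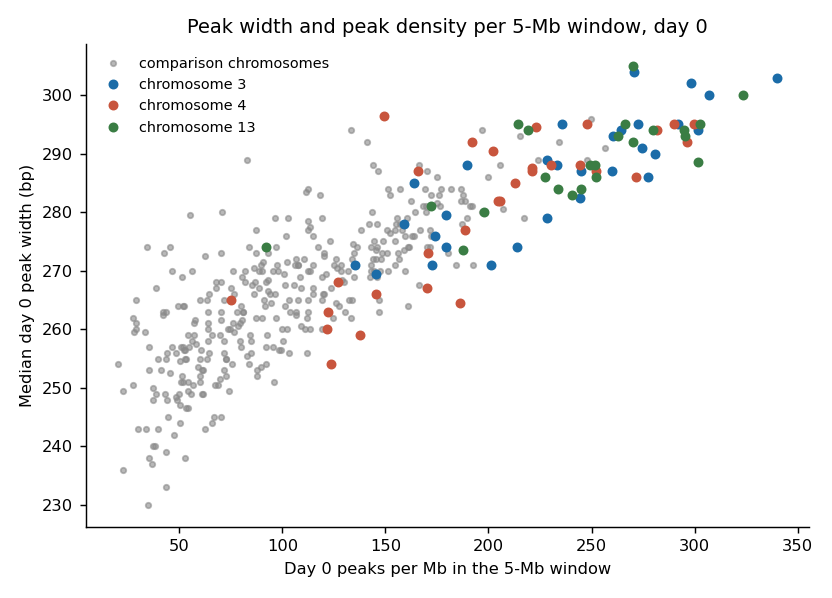
Median day 0 peak width in bp (y axis) against day 0 peaks per Mb (x axis) in each 5-Mb window, with comparison windows in grey. The 8 comparison windows with under 100 day 0 peaks are not drawn, and windows of chromosomes 3, 4 and 13 lie in the same band as comparison windows where densities meet, for example 278 bp in both at 150 to 200 per Mb.

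Day 5 widths hardly differed. The median was 60 bp on chromosomes 3 and 13 and 57 bp on chromosome 4, against 58 bp on comparison chromosomes, whose medians ran from 56 to 67. Peaks at least 112 bp wide were 13.5%, 12.4% and 13.6%, beside 13% of all autosomal day 5 peaks. Neighbouring day 5 summits lay 1606, 1850 and 1642 bp apart, against 1819 bp.

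At least 1 bp was shared with a day 5 peak by 23.8% of day 0 peaks of chromosome 3 (23.4 to 24.3), 20.7% of chromosome 4 (20.3 to 21.2) and 23.7% of chromosome 13 (23.2 to 24.2), where the share over all autosomes was 22%. The comparison chromosomes ranged from 12.2% to 28.7%, and chromosomes 7 and 10, at these ends, had median widths of 270 and 263 bp. Their day 5 densities were the lowest and the highest of the comparison chromosomes, 155.4 and 427.4 peaks per Mb. Among day 0 peaks of 250 to 300 bp, the shares were 20.5%, 18.4% and 19.8%, against 18.96% on comparison chromosomes. At 400 to 600 bp they were 33.3%, 28.3% and 32.5%, against 29.02%. Seen from day 5, 16.02%, 14.01% and 17.4% of the peaks of chromosomes 3, 4 and 13 touched a day 0 peak, against 6.96% on comparison chromosomes, where day 0 peaks were fewer, and 9.3% on all autosomes. These shares are a description only, since the lists may share the 1 input that the labels name, and its part in the overlap was not tested.

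The strongest day 0 peaks stood in the densest windows of a chromosome and in less dense ones. On chromosome 13 the 2 highest, chr13:63801535-63802964 and chr13:21418079-21419648, had authors' folds of 51.6 and 33.5. They lay in windows with 214.2 and 219.2 day 0 peaks per Mb. Both windows were below that chromosome's median window but above the 90th percentile of comparison windows, 169.4. The next 3 began at 36804575 with 71 reads piled up and a fold of 16.7, at 51614117 with 70 reads and a fold of 11.03, and at 107846513 with 48 reads and a fold of 14.8. On chromosome 3 the 2 highest lay in its densest window. They were chr3:103397308-103398636, with 138 reads and a fold of 18.9, and chr3:103613181-103613704, with 132 reads and a fold of 12.7. The others began at 121976903 with 75 reads, at 108925732 with 57 and at 89196906 with 64. On chromosome 4 the highest, chr4:15921498-15922181, held 89 reads at a fold of 17.5. It was followed by peaks from 144539282 with 84 reads, from 62072615 with 60, from 138748597 with 76 and from 3865400 with 61. These 15 peaks were 503 to 1570 bp wide. A day 5 peak overlapped 2 of the 5 on chromosome 3, 1 of 5 on chromosome 4 and 4 of 5 on chromosome 13, and its pile-up was at most 7 reads. Pile-ups of the lists are not on one scale, since the narrowest widths were 228 bp at day 0 and 56 bp at day 5. Scaled by the lowest backgrounds of both lists, the day 0 pile-ups of these 15 peaks ran from 11.1 to 56.8 reads. Among all autosomal day 0 peaks with a −log10 q of at least 5, 35.8% overlapped a day 5 peak. The 5 peaks of a chromosome are too few to set against that share.

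The widest day 0 peak of each chromosome was not among its 5 strongest, although width rose with strength over classes. On the 3 chromosomes together the median day 0 width was 253 bp at a −log10 p from 1.5 to 2. It was 380 bp from 4 to 5, 713 bp from 8 to 12 and 707.5 bp at 12 and above. The widest day 0 peak of the 3 chromosomes, chr3:89323598-89326740, spanned 3143 bp with 15 reads at its summit and a fold of 3.46. The widest on chromosome 4, chr4:132568068-132570545, spanned 2478 bp with 32 reads, and that on chromosome 13, chr13:98009406-98011369, spanned 1964 bp with 42 reads. The latter 2 each lay in the densest window of their chromosome.

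The highest day 5 peaks were small. On chromosome 13 the first, chr13:28282480-28282615, held 8 reads over a background of 0.452, and those from 61684353 and 72451361 held 7. On chromosome 3 they began at 27436714 with 9 reads, and at 11475481 and 20482606 with 7 reads each. On chromosome 4 the highest, chr4:3016900-3016962, held 44 reads over a background of 16.2, a fold of 2.61, and those from 123393950 and 22991599 held 9 and 7. Of these 9 peaks, only the one from 61684353 on chromosome 13 overlapped a day 0 peak, where 15.8% of all day 5 peaks of these chromosomes did. The widest day 5 peaks of chromosomes 3, 4 and 13 began at 55983461, 53603433 and 78650382, spanned 393, 413 and 392 bp, and held 4 reads each.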

How the data were processed

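Each day's peaks and summits were called from 1 library, with a program not given in the sources used. Tools and builds have no roles in the notes: the submitters' processing notes name the tools HOMER and Bowtie2 and the builds GRCm38, mm10 and mm9. Coordinates are mm9: of 19 autosomes 9 have a peak past the mm10 end and 0 past the mm9 end. The authors deposited for each peak a score (about 10 times −log10 p), a fold ratio over control background, and a −log10 p and −log10 q. These describe peaks within a list.

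Summits were counted in 5-Mb windows from position 1 of each chromosome that lie wholly between the first and last peak of either list. Pile-up and background were solved from fold and −log10 p (relative tolerance 0.0001, 1 day 0 peak unsolved, on chromosome 13), tested on simulated data (99.995% and 99.985% of 20000 recovered for day 0 and day 5). Density intervals are exact Poisson, shares Wilson, and ratios use the log of counts. Scripts ran in Python 3.11.15 (numpy 2.4.6, pandas 2.3.3, scipy 1.17.1, matplotlib 3.10.9) with bedtools 2.31.1 for overlap. Columns not used number 0.

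The chromosomes, limits and lists were chosen with earlier results of these data known. Named regions on each chromosome are the 3 densest and 3 sparsest windows and the sharpest step at day 0, the 5 day 0 and 3 day 5 peaks of highest −log10 p, and the widest peak of each list. Regions of 1 to 2 Mb were chosen after their values were seen, as were comparison chromosomes of like background, peaks at the lowest background, leaving out chromosome 7, and widths at a q of at most 0.05.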

Additional observations from a re-analysis of the deposited data

How the results depend on the processing

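Of 46 alternatives, 6 stayed within the counting interval of the value reported, 38 moved beyond it and 2 turned the direction. The cause was not tested in any of them. The median day 0 window of chromosomes 3, 4 and 13 over the median comparison window was 2.48. It was 2.60 at a −log10 p of at least 2, 3.15 at 3, 4.33 at a q of at most 0.05, 2.37 with chromosome 15 in the comparison, 2.32 against chromosomes of like background, 2.38 without chromosome 7 and 1.56 for peaks at the lowest background. At day 5 this value, 1.05, turned to 0.982 against chromosomes of like background and 0.713 for peaks at the lowest background, so no direction holds there. It was 1.09 in windows of 2 Mb, 1.05 in windows of 10 Mb, 1.08 in windows moved by 2.5 Mb, 1.08 and 1.13 at a −log10 p of at least 2 and 3, 1.03 with chromosome 15 and 1.03 without chromosome 7. The same value for the ratio of day 0 to day 5 was 2.12. In the same order of windows it was 2.19, 1.98 and 2.03, at the 2 limits on p 2.21 and 2.15, with chromosome 15 2.04, against like background 2.21, at the lowest background 1.98 and without chromosome 7 2.19. The share of windows above the limit was 83.1%. It was 33.7% where the highest comparison window was the limit, 90.4% at the 75th percentile, 71.4% in windows of 2 Mb, 89.7% in windows of 10 Mb and 73.5% with chromosome 15. The day 0 difference in median width, 17 bp, was 25 bp at a −log10 p of at least 3, 122 bp at a −log10 q of at least 5, 7 bp at a q of at most 0.05 and 14 bp with chromosome 15, and that of day 5, 1 bp, was 0 bp with chromosome 15. No day 5 value exists at a −log10 q of at least 5, since no day 5 peak passed it. The overlapping share, 22.8%, was 0.683% at a reciprocal overlap of 50%, 11.8% for summits within 100 bp and 33.5% at a q of at most 0.05. Peaks with a −log10 q of at least 5 numbered 0.404 per Mb, against 0.171 at 10 and 5.28 at a q of at most 0.05. No paired analysis was possible because each day has 1 library and no result comes from a test. Median pile-ups of 7 reads at day 0 and 3 at day 5 limit what a single weak peak shows.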

Other observations

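The chromosome ends outside whole windows were uneven. Before 5 Mb, chromosome 13 held 232.4 day 0 peaks per Mb from its first peak on, chromosome 4 held 193.1 and chromosome 3 held 148.02, and at day 5 the values were 290.7, 225.8 and 231.5. At the far ends, chromosome 3 held 174.2 per Mb over the last 4.598 Mb, chromosome 4 held 257.6 over 0.629 Mb and chromosome 13 held 225.8 over 0.283 Mb.

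Of the 66 day 0 peaks of chromosome 4 with a −log10 q of at least 5, 12 lay in chr4:140000001-145000000, which held 223.2 day 0 peaks per Mb. On chromosome 3 the window from 95000001 held 10 of 57, with 260.4 per Mb, and on chromosome 13 that from 55000001 held 6 of 49, with 301.6. Of those on chromosome 13, 23 of 49 (46.9%, 33.7 to 60.6) overlapped a day 5 peak, beside 18 of 57 on chromosome 3 (31.6%, 21.004 to 44.5) and 19 of 66 on chromosome 4 (28.8%, 19.3 to 40.6), and these intervals overlap. On comparison chromosomes 37.5% (33.4 to 41.7) did, and on the 3 together 34.9% (28.2 to 42.3).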
